A study of Mus musculus with 31 samples.

Results

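Medium spiny neurons are the projection neurons of the striatum, and the genes described here are those by which they are commonly recognised. They comprise the peptide precursors Pdyn and Tac1 of the direct pathway, the dopamine receptor gene Drd2, the peptide precursor Penk and the adenosine receptor gene Adora2a of the indirect pathway, and Ppp1r1b, Pde10a and Rgs9, which both pathways use. The genes were taken by symbol from the platform annotation. Of the 8 listed genes, 7 had a probe, 1 each, among 15096 annotated genes. Adora2a was not analysed here, so the indirect pathway was represented by 2 genes, like the direct pathway.

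The study set RNA from the whole brain of each of 31 BXD/TyJ strains against that of C57BL/6J on 2-colour arrays and used 1 array for each strain. These are recombinant inbred lines that descend from C57BL/6J and DBA/2J, so that each carries a fixed mosaic of both parental genomes. The mice of the strains and of the C57BL/6J reference were males aged 8 weeks, with RNA of 3 animals pooled for each strain and the C57BL/6J RNA likewise a pool. One Alexa Fluor dye always marked the strain RNA and another the C57BL/6J RNA, and dyes were never swapped, so an effect of dye or spot could not be separated from a difference from C57BL/6J. The values are log ratios, taken as log2 and as strain over C57BL/6J. Neither the base nor the direction is stated in the sources used here, and in the other direction every sign of a mean would turn, whereas correlations would stay as they are. Log ratios give no levels, so whether the probes detected striatal RNA in whole brain could not be checked. Each strain had 1 array of 1 pool, so no strain could be tested against another, and the number of arrays limits the precision. In whole-brain RNA, fewer striatal cells and less RNA per striatal cell cannot be told apart. RNA of these genes from cells outside the striatum would enter the same values, and its share was not measured.

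The arrays fell into 3 groups over all spots. The first principal component (29.1% of the variance) set apart strains BXD38, BXD36, BXD28, BXD23, BXD20, BXD8 and BXD6, and the second (12.1%) set apart strains BXD42, BXD40, BXD39, BXD34, BXD33, BXD27, BXD22 and BXD15. These are called the 7-array and the 8-array group below, beside the other 16 arrays. The labels give no batch, and whether the groups are technical was not tested. Because all spots on an array, including those of the genes described here, were used to find the groups, differences between them are given without a test.

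In the striatum dopamine acts through 2 classes of receptor. Neurons of the direct pathway carry the receptor Drd1, which raises cyclic AMP, and make dynorphin from Pdyn and substance P from Tac1, whereas those of the indirect pathway carry Drd2, which lowers cyclic AMP, and make enkephalins from Penk. Ppp1r1b encodes DARPP-32, a target of cyclic AMP signalling that inhibits protein phosphatase 1. Pde10a encodes a phosphodiesterase that breaks down cyclic nucleotides, and Rgs9 a regulator that shortens signalling by G proteins.

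The transcription factor CREB, which acts downstream of cyclic AMP, binds the palindrome TGACGTCA and the shorter motif TGACG, found on both strands within the palindrome. RefSeq promoter windows (GRCm38.p6, from 250 bases before to 50 bases after the start) were found for 5 of the 7 genes. Those of the direct pathway genes are shown because these 2 genes, which the same neurons express, had mean log ratios of opposite sign as deposited. Centred by the place of the probe, as described below, both means were positive (0.37 for Pdyn and 0.28 for Tac1). Whether promoter motifs bear on the values was not tested. Capitals mark TGACG on either strand (CGTCA on the strand shown), and promoters were not measured in this study.
Tac1, chr6:7554811-7555110, plus strand: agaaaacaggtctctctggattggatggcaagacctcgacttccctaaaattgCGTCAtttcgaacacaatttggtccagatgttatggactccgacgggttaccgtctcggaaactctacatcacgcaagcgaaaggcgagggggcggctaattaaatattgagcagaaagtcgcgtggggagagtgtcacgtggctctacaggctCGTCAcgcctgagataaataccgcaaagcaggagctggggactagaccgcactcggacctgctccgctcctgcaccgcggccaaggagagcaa
Pdyn, chr2:129699889-129700188, minus strand: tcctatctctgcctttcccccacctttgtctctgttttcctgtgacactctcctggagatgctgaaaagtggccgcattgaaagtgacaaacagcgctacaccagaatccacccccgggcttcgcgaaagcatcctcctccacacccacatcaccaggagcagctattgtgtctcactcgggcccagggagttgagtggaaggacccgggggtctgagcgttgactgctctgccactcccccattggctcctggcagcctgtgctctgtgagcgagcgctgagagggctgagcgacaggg
The Tac1 window held the shorter motif at 2 positions, starting at −197 and −43 relative to the start, and neither this Pdyn window nor a second one held it, nor did the windows of Drd2, Pde10a and Rgs9. Of all 32851 windows in the table, 20.8% held the shorter motif and 1.79% the palindrome, which was in neither window shown.

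The mean log ratio over the strains differed from 0 for all 7 genes by limma's moderated test, 5 with a positive mean (Pdyn, Drd2, Ppp1r1b, Pde10a and Rgs9) and 2 with a negative one (Tac1 and Penk). The sign of Tac1 turned when arrays were centred by the place of the probe, as described below. Of all 21262 features (genes, or spots without a symbol), 76.1% passed the same test, 42.1% above 0 and 33.9% below, so passing it does not set these genes apart. Among the 15096 named genes the share was 75.6%, of which 41.7% above 0. When the null was a change of 1.2-fold, Pdyn, Drd2, Pde10a and Penk passed and Tac1, Ppp1r1b and Rgs9 did not, where 27.9% of features passed, 12.4% above 0 and 15.6% below.

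Among the direct pathway genes, Pdyn had a log ratio of −0.19 in its lowest strain, BXD14, a median of 0.43 and 0.76 in its highest, BXD42. It was above 0 on 28 of 31 arrays, and averaged 0.38 ± 0.04 (SE, n = 31; adjusted p = 4.25e-09 by limma). Tac1 ran from −0.56 in BXD20 through a median of −0.12 to 0.38 in BXD36 and averaged −0.14 ± 0.03 (SE, n = 31; adjusted p = 0.000142 by limma). It was below 0 on 29 arrays, and BXD36 stood above the next strain, BXD32, which had 0.03.

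Among the indirect pathway genes, Drd2 ran from 0.02 in BXD38 through a median of 0.41 to 0.80 in BXD28 and averaged 0.40 ± 0.03 (SE, n = 31; adjusted p = 4.85e-12 by limma). It was above 0 on all 31 arrays. Penk was below 0 on all 31 arrays, from −2.45 in BXD31 through a median of −1.26 to −0.16 in BXD28, and it averaged −1.27 ± 0.08 (SE, n = 31; adjusted p = 1.85e-16 by limma). Of all genes, 9.96% had 1 sign on every array, and 1.25% had a lower mean than Penk. BXD31 was lower than the next strain, BXD21, which had −1.89, and BXD28 was higher than the strain below it, BXD23, at −0.64.

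Among the genes of both pathways, Ppp1r1b ran from −0.14 in BXD5 through a median of 0.24 to 1.26 in BXD11 and was above 0 on 28 arrays. It averaged 0.34 ± 0.06 (SE, n = 31; adjusted p = 3.2e-06 by limma), and BXD18 with 1.03 followed BXD11. Pde10a had −0.40 in BXD38, a median of 0.52 and 1.49 in BXD2, and averaged 0.53 ± 0.08 (SE, n = 31; adjusted p = 4.57e-07 by limma). Rgs9 ran from −0.26 in BXD31 through a median of 0.14 to 0.70 in BXD39 and averaged 0.17 ± 0.03 (SE, n = 31; adjusted p = 2.45e-05 by limma). Pde10a and Rgs9 were each above 0 on 28 arrays.

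**Figure D1:**
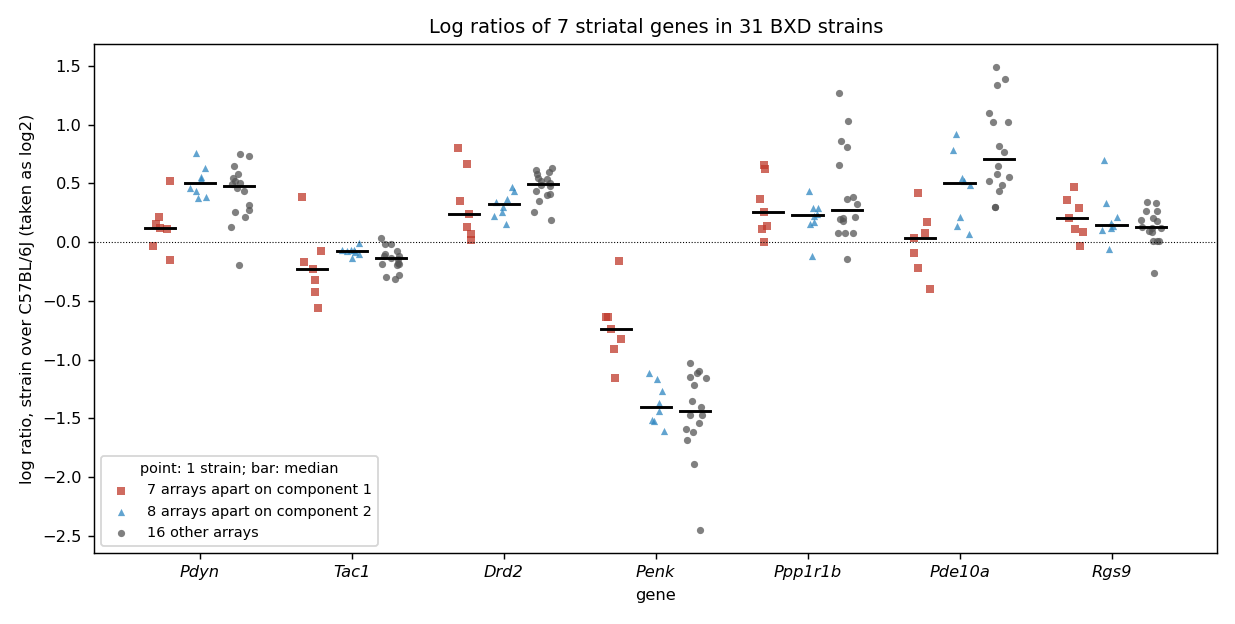
Log ratios (taken as log2, strain over C57BL/6J) of the 7 striatal genes on the vertical axis, 1 point per strain, with the 7-array group (squares), the 8-array group (triangles) and the other 16 arrays (circles) side by side for each gene and a bar at each median. Drd2 is above 0 and Penk below 0 in every strain, and the 7-array group lies lowest for Pde10a and highest for Penk.

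The array groups differed most for Penk and Pde10a. Penk had a median of −0.74 (range −1.16 to −0.16) in the 7-array group and −1.43 (−2.45 to −1.03) in the other 16 arrays, and 6 of the 7 strains lay above all 16. Pde10a had a median of 0.04 (−0.40 to 0.41) in the 7-array group and 0.71 (0.30 to 1.49) in the other 16 arrays, and 6 of the 7 strains lay below all 16. The medians of the 7-array group were thus nearer to 0 for both genes, and the groups overlapped through 1 strain of the 7 in each case, BXD20 for Penk and BXD36 for Pde10a. Differences between array groups held 49.5% of the variance of Penk and 48.9% of that of Pde10a over the strains, above 71.1% and 70.5% of all genes, whose median was 33.9%.

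For Pdyn the median was 0.12 in the 7-array group, 0.50 in the 8-array group and 0.48 in the other 16 arrays, and 31.9% of the variance lay between groups. For Drd2 the medians were 0.24, 0.32 and 0.49 in the same order, with 16.7% of the variance between groups. Tac1, Ppp1r1b and Rgs9 had 7.58%, 7.03% and 5.75% of their variance between groups, each below the median of all genes. The spread of Tac1 itself differed between the groups, with an SD of 0.30 in the 7-array group, 0.03 in the 8-array group and 0.10 in the other 16 arrays; all 8 strains of the 8-array group lay between −0.13 and −0.01.

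Without the 7-array group the mean was −1.43 for Penk, 0.68 for Pde10a, 0.45 for Pdyn, 0.42 for Drd2, 0.34 for Ppp1r1b, 0.16 for Rgs9 and −0.12 for Tac1. Without the 8-array group the means were −1.23, 0.55, 0.33, 0.43, 0.38, 0.16 and −0.16 in the same order of genes. Each of these differed from 0 by limma's moderated test in both settings, where 79.4% of features passed without the 7-array group (43.2% above 0 and 36.1% below) and 70.7% without the 8-array group (38.8% above 0 and 31.9% below). Within array groups the SD over strains was 0.34 for Pde10a, 0.32 for Ppp1r1b and 0.31 for Penk, wider than in 83.6% to 88.2% of all genes, 0.21 for Pdyn, at the median of all genes, and 0.16 to 0.18 for Tac1, Rgs9 and Drd2, wider than in 20.4% to 29.8% of genes.

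Log ratios differed with the place of a probe in the numbering of probes, mainly at 1 place. Place here is taken from the probe number, and the position on the array was not used. Probe numbers run in series of 8 spots, and named probes at the eighth place had a median log ratio of −0.44 (n = 2182), against 0.03 to 0.12 at each of the other 7 places. Both genes with a negative mean, Tac1 and Penk, had their probe at the eighth place, and none of the 5 genes with a positive mean did. Penk lay below the median of its place, with 7.88% of the probes there lower, whereas Tac1 lay above it, with 75.3% lower. When each array was centred on the median of each place, the mean of Penk was −0.85 ± 0.07 (SE, n = 31; adjusted p = 2.35e-13 by limma) and it was below the place median on 30 of 31 arrays. The mean of Tac1 turned positive, 0.28 ± 0.04 (SE, n = 31; adjusted p = 4.94e-08 by limma), above the place median on 28 arrays. The other 5 genes kept positive means that passed the test, 0.45 for Pde10a, 0.37 for Pdyn, 0.30 for Drd2, 0.24 for Ppp1r1b and 0.11 for Rgs9. After this centring 73.6% of features passed, 38.5% positive and 35.1% negative. Which of the 2 scales is nearer to RNA abundance was not tested.

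**Figure D2:**
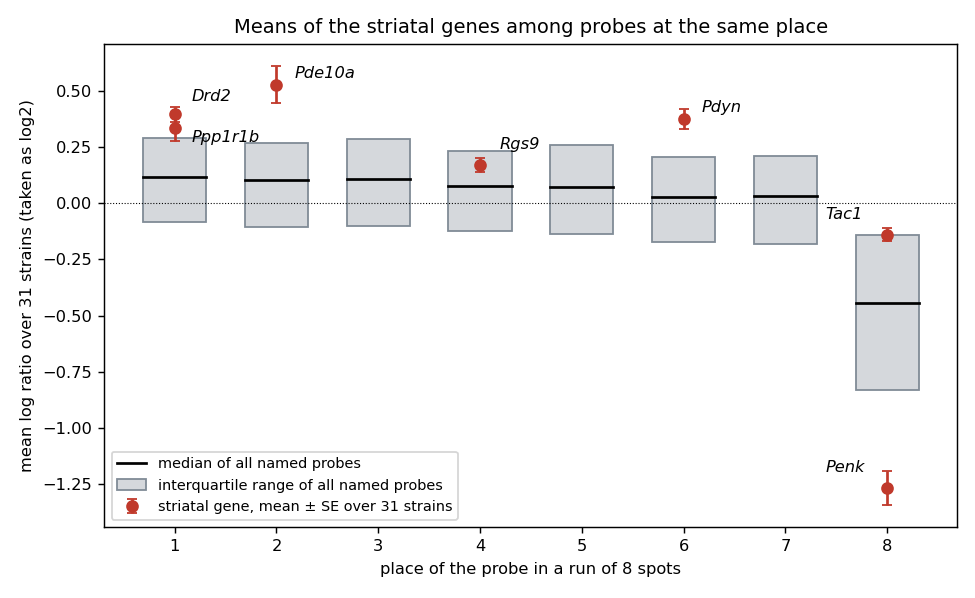
Mean log ratio over the 31 strains (vertical axis, taken as log2) against the place of the probe in a run of 8 spots (horizontal axis). Grey boxes span the interquartile range of the means of all named probes at a place with their median as a black line, and red points are the striatal genes with SE. Probes at the eighth place have a median of −0.44, with Tac1 at the upper edge of the box and Penk below the box.

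The second comparison asked whether genes of the direct and the indirect pathway varied together over the strains. Correlations were computed after subtraction of the mean of each array group, so that a shared difference between array groups does not enter them, and were tested by permuting strains within array groups (two-sided), with Benjamini-Hochberg adjustment over the 21 pairs of the 7 genes. None of the 21 pairs passed (adjusted permutation p from 0.205 to 0.987), and 2 had an unadjusted permutation p under 0.05. With Spearman's rho none passed either, with 2 unadjusted, and without subtraction of group means none passed, with 3 unadjusted. Over the 21 pairs r ran from −0.109 to 0.478 with a median of 0.0879, positive in 15 pairs.

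Between the pathways, Pdyn and Penk had r = 0.352 (95% interval by Fisher's z from −0.0165 to 0.636; permutation p = 0.0836, adjusted p = 0.439) and rho = 0.378 (permutation p = 0.0470, adjusted p = 0.391). Pdyn and Drd2 had r = −0.00351 (−0.370 to 0.363; permutation p = 0.987) and rho = 0.0222 (permutation p = 0.910). Tac1 and Drd2 had r = 0.0861 (permutation p = 0.8) and rho = 0.195 (permutation p = 0.347), and Tac1 and Penk had r = 0.0976 (permutation p = 0.621) and rho = −0.0492 (permutation p = 0.806). Without subtraction of group means r was −0.157 for Pdyn and Penk, 0.0560 for Pdyn and Drd2, 0.0573 for Tac1 and Drd2 and −0.0636 for Tac1 and Penk, so that 3 of the 4 pairs turned sign and their median was −0.0038 in place of 0.0919. The intervals thus leave room for moderate correlations in either direction for Pdyn with Drd2, and these data do not show that the genes vary independently.

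Within a pathway no pair passed either. The 2 direct pathway genes, Pdyn and Tac1, had r = 0.0545 (−0.318 to 0.413; permutation p = 0.785) and rho = 0.0246 (permutation p = 0.901). The 2 indirect pathway genes, Drd2 and Penk, had r = 0.181 (−0.199 to 0.513; permutation p = 0.357) and rho = 0.192 (permutation p = 0.315). With 1 pair within each pathway and 4 between them, no test of within against between was made. The 2 strains farthest from the median of the first gene, after subtraction of group means, were then left out. Between the pathways r was 0.364 for Pdyn and Penk, 0.0427 for Pdyn and Drd2, 0.215 for Tac1 and Drd2 and 0.112 for Tac1 and Penk. Within a pathway it was 0.199 for Pdyn and Tac1 and −0.0331 for Drd2 and Penk, and none of these passed.

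**Figure D3:**
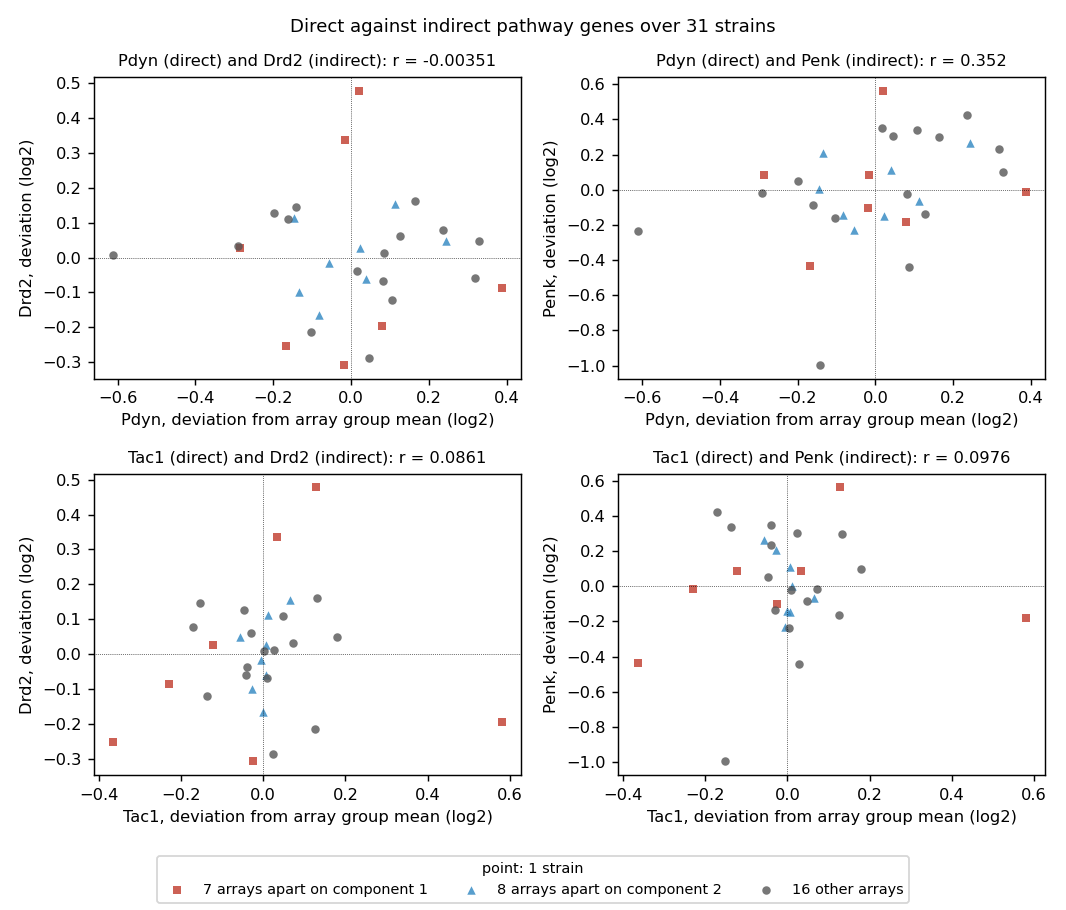
Deviation of each strain from the mean of its array group (log2) for the 4 pairs of a direct pathway gene (horizontal axes) and an indirect pathway gene (vertical axes), 1 point per strain, with squares for the 7-array group, triangles for the 8-array group and circles for the other 16 arrays. The points form no clear line in any panel, with r from −0.00351 to 0.352.

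By Pearson's r the 2 highest correlations each involved a gene of both pathways, and Pdyn and Penk, described above, followed. Pdyn and Ppp1r1b had r = 0.478 (0.136 to 0.719; permutation p = 0.0165, adjusted p = 0.205) and rho = 0.425 (permutation p = 0.0250, adjusted p = 0.391). Among the 15095 other genes ranked by their r with Pdyn, Ppp1r1b stood at place 54, and among those ranked by their r with Ppp1r1b, Pdyn stood at place 237. The sign of r was not the same in all array groups. It was 0.629 (exact permutation p = 0.125) in the 7-array group and −0.705 (exact permutation p = 0.0528) in the 8-array group. In the other 16 arrays r was 0.570 (permutation p = 0.0203), and the difference between groups was not tested. Leaving out BXD8 and BXD14, the strains farthest from the median of Pdyn after subtraction of group means, gave r = 0.467. The strains where Ppp1r1b was highest, BXD11 and BXD18, stayed in, so whether r rested on them was not tested.

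Penk and Rgs9 had r = 0.401 (0.0403 to 0.669; permutation p = 0.0195, adjusted p = 0.205) and rho = 0.297 (permutation p = 0.112, adjusted p = 0.585). Without BXD28, where Penk was highest, and BXD31, where Penk and Rgs9 were both lowest, r was 0.177 (permutation p = 0.310). Within groups r was 0.552 (exact permutation p = 0.188) in the 7-array group, which holds BXD28, and −0.0513 (exact permutation p = 0.916) in the 8-array group. It was 0.563 (permutation p = 0.0308) in the other 16 arrays, which hold BXD31. Drd2 and Pde10a had r = 0.325 (permutation p = 0.0540, adjusted p = 0.378) and rho = 0.344 (permutation p = 0.0558, adjusted p = 0.391), and r = 0.339 without BXD6 and BXD28. For 6 of the 21 pairs, among them 4 of the 6 with Penk, the sign turned when group means were not subtracted. Penk and Pde10a had r = 0.278 (permutation p = 0.165) after and −0.322 (permutation p = 0.0765) before subtraction of group means, and neither value passed, and Drd2 and Penk had 0.181 after and −0.0613 before. The within-group values of Penk and Pde10a were 0.346, 0.297 and 0.265 for the 7-array group, the 8-array group and the other 16 arrays.

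Within single array groups, Drd2 and Penk had r = 0.861 over the 7-array group (exact permutation p = 0.00377, adjusted p = 0.0792 over 21 pairs), where BXD28 was highest for both, −0.00941 over the 8-array group and −0.287 over the other 16 arrays. Drd2 and Rgs9 had r = −0.807 over the 8-array group (exact permutation p = 0.00791, adjusted p = 0.166), 0.225 over the 7-array group and −0.105 over the other 16 arrays. No pair passed within the 7-array group (2 unadjusted), the 8-array group (1 unadjusted) or the other 16 arrays (2 unadjusted).

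**Figure D4:**
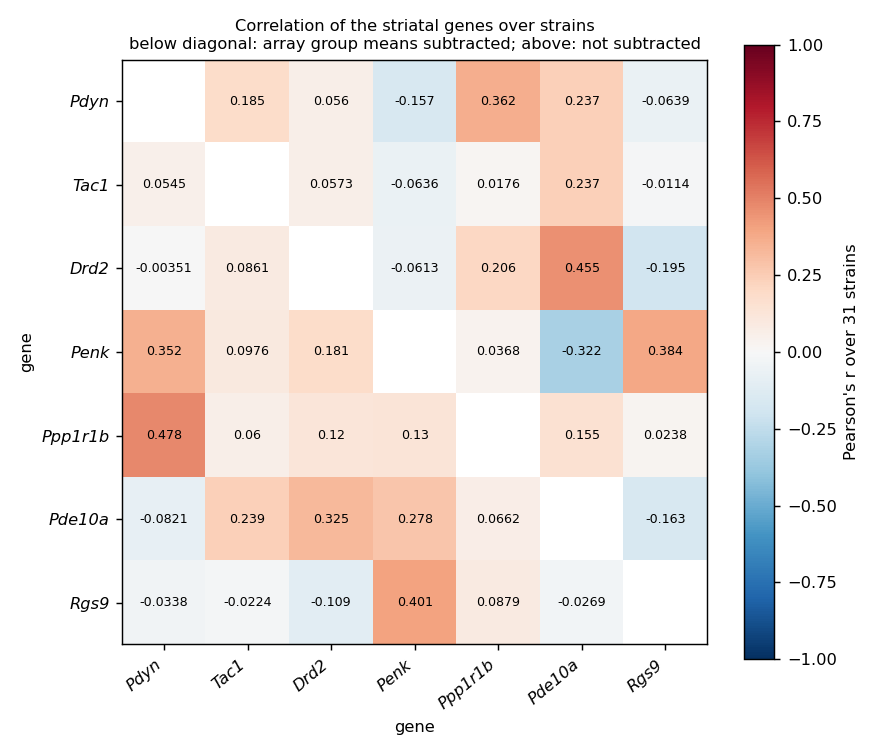
Pearson's r over the 31 strains for the 21 pairs of the 7 striatal genes, with array group means subtracted below the diagonal and not subtracted above it, on a colour scale from −1 to 1. The highest value below the diagonal is 0.478 for Pdyn and Ppp1r1b, and Penk and Pde10a change sign across the diagonal, from 0.278 below to −0.322 above.

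The genes with the most similar pattern were found by Pearson's r over the 31 strains after subtraction of group means, as a description without a test. All spots of an array share its pool and labelling. The 2 nearest to Pdyn were 1700052K11Rik (r = 0.657) and Car11 (r = 0.634), those nearest to Tac1 were 4930526L06Rik (0.816) and Kmt2a (0.810), and those nearest to Drd2 were Tagap1 (0.773) and Tfrc (0.740). Those nearest to Penk were Atp6v0a2 (0.667) and Stim2 (0.661), to Ppp1r1b Xrcc4 (0.758) and Scg3 (0.734), to Pde10a Sptssb (0.650) and Rnf19a (0.631), and to Rgs9 Tctn3 (0.644) and Tnp1 (0.622). None of the 7 striatal genes was among these. The likeness of both genes to Tac1 was highest in the 7-array group, where Tac1 spread most, with r = 0.963 for 4930526L06Rik and 0.940 for Kmt2a, against −0.340 and 0.0352 in the 8-array group and 0.214 and 0.584 in the other 16 arrays. Stim2 with Penk had 0.911 in the 7-array group, −0.579 in the 8-array group, 0.724 in the other 16 arrays and −0.0237 over all arrays without subtraction. Scg3 with Ppp1r1b had −0.354 in the 7-array group, −0.172 in the 8-array group and 0.865 in the other 16 arrays.

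Other genes of these neurons and of dopamine signalling were read from lists, by their means over the strains. The counts below leave out the 7 genes already described, and are to be read against the 42.1% of all features that were positive and the 33.9% that were negative (38.5% and 35.1% centred by place). Of 15 other measured genes of medium spiny neurons of both pathways, 7 had a positive and 3 a negative mean that passed limma's test, against 6 and 4 centred by place. Bcl11b, a transcription factor of these neurons, averaged 0.38 (its 2 probes gave 0.44 and 0.31), the homeobox gene Meis2 −0.30 and Arpp21, a phosphoprotein regulated by cyclic AMP, −0.95 with its probe at the eighth place (−0.53 centred by place). Of 6 other direct pathway genes, 2 were positive and 1 negative, against 1 and 2 centred by place. As deposited, the transcription factor genes Ebf1 at 0.18 and Isl1 at 0.12 were positive and Eya1 at −0.51 negative. Centred by place, Ebf1 had 0.09 (limma adjusted p = 0.152) and Isl1 0.06 (limma adjusted p = 0.179). Chrm4 at the eighth place had −0.00075 (limma adjusted p = 0.984) and, centred by place, 0.42 (limma adjusted p = 8.39e-11). Slc35d3 had −0.04 (limma adjusted p = 0.498) and, centred by place, −0.12 (limma adjusted p = 0.0248). Drd1, named here although the rule did not select it, averaged 0.02 over 3 probes that gave −0.21, 0.07 and 0.19 (limma adjusted p = 0.514 for the average). The one other measured gene of the indirect pathway, the homeobox gene Six3 at the eighth place, had −0.07 (limma adjusted p = 0.457) and, centred by place, 0.34 (limma adjusted p = 0.0023).

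Of 10 measured genes of dopamine synthesis, transport and receptors other than Drd2, 6 had a positive mean and none a negative one that passed limma's test. Drd3, which encodes another dopamine receptor, was the one gene of the list with a mean below 0, −0.01 (limma adjusted p = 0.733), and centred by place it had −0.09 (limma adjusted p = 0.0168), so that 5 genes were then positive and 1 negative. Th, the rate-limiting enzyme of dopamine synthesis, had a mean of 0.26 ± 0.03 and was above 0 on 30 of 31 arrays, Ddc, which makes dopamine from L-DOPA, had 0.28 ± 0.05, and Qdpr, which regenerates the cofactor of Th, 0.21 ± 0.04 (SE, n = 31 each). Of 8 genes of midbrain dopamine neurons, 3 were positive and 2 negative on either scale, with the transcription factor gene Pitx3 at 0.19 and the dopamine transporter gene Slc6a3 at 0.10, which centred by place was 0.05 (limma adjusted p = 0.198). The positive genes were thus not the same on both scales. En1 at the eighth place had −0.006 (limma adjusted p = 0.926) and, centred by place, 0.41 (limma adjusted p = 1.17e-06).

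Of 9 other measured opioid and tachykinin precursors and receptors, 4 were positive and 2 negative, and the counts were the same when centred by place. The positive genes were not all the same, since Oprd1 no longer passed when centred by place (0.09, limma adjusted p = 0.218). Tac2 at the eighth place had −0.07 (limma adjusted p = 0.403) and, centred by place, 0.35 (limma adjusted p = 1.37e-05). Oprk1, the receptor for dynorphin, averaged 0.53 ± 0.05 (SE, n = 31; adjusted p = 2.97e-12 by limma) and was above 0 on all 31 arrays, like Drd2. The tachykinin receptor gene Tacr2 had 0.42 ± 0.05 and was above 0 on 29 arrays, whereas Tacr3, another of the family, had −0.95 ± 0.11 (SE, n = 31) and was below 0 on 30, with its probe at the third place.

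Markers of other brain regions and of glia moved in both directions, and their part in the values of the striatal genes was not tested. Of 6 cortical genes 2 were positive and 2 negative (3 and 2 centred by place), with Cux2 at 0.17, Fezf2 at −0.16 and Neurod6 at 0.13. Of 8 cerebellar genes 4 were positive and 1 negative (3 and 2 centred by place), with Neurod1 at 0.42, Cbln1 at 0.41 and Gabra6, at the eighth place, at −1.02 (−0.60 centred by place). Of 8 genes of thalamus and hypothalamus 3 were positive and 3 negative (3 and 2 centred by place), with Slc17a6 at −0.40, Tcf7l2 at −0.28 (0.11 and −0.66 for its 2 probes, and −0.12 with limma adjusted p = 0.0615 when centred by place) and Trh at 0.16. Of 7 oligodendrocyte genes 6 were positive and none negative (5 and none centred by place, where Cldn11 had limma adjusted p = 0.139), with Mal at 0.44, Cnp at 0.42 and Mag at 0.19. Mbp averaged 0.04 (limma adjusted p = 0.152) over 3 probes of unlike sign, which gave 0.39, 0.15 and −0.41. Of 7 astrocyte genes 1 was positive and 4 negative on either scale, with Gja1 at −0.99, Sox9 at −0.51 and Aldoc at −0.36. In the microglial list 2 of 6 genes had positive and 3 negative means (1 and 3 centred by place), with Tyrobp at 0.59 and the eighth-place probes of P2ry12 and Cx3cr1 at −0.67 and −0.64 (−0.25 and −0.22 centred by place).

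**Figure D5:**
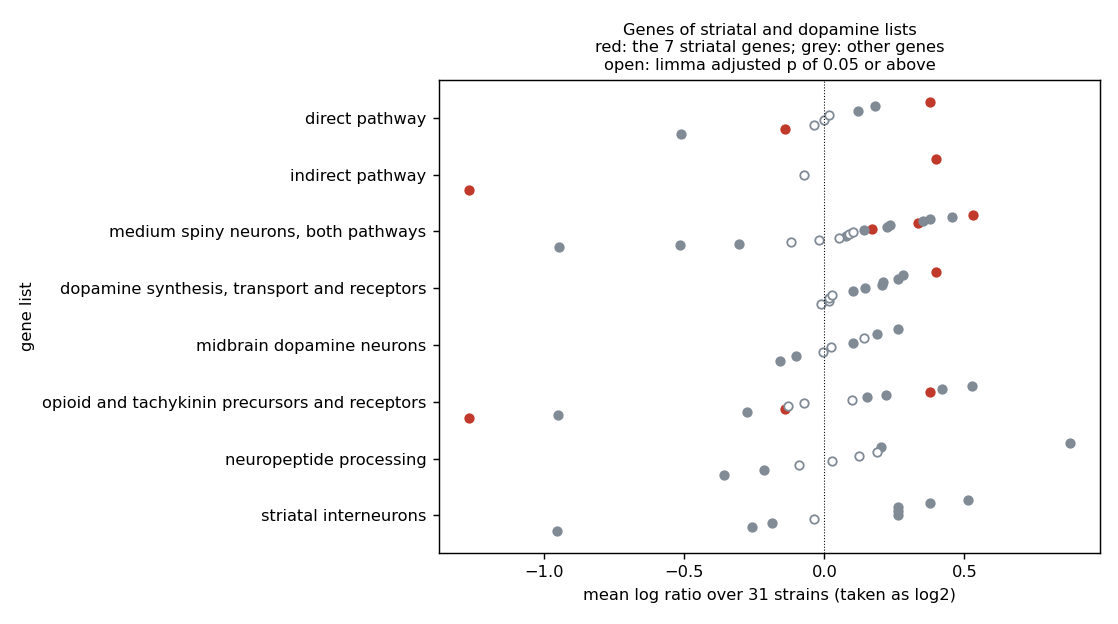
Mean log ratio over the 31 strains (horizontal axis, taken as log2) of the measured genes in 8 lists of striatal, dopamine and peptide genes (vertical axis), ordered by value within each list, with the 7 striatal genes in red, other genes in grey and open points where limma's adjusted p was 0.05 or above. Penk is the lowest gene of its lists and the dopamine list holds no called gene below 0.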

How the data were processed

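The deposited values are log2 ratios of the 2 channels, by assumption of the base, for 23040 spots on 31 arrays. R 2.0.0 and limma are named by the authors without a role, per the submitters' processing notes. How background was corrected or spots were filtered is not stated in those sources. The deposited arrays held identical sorted values (median 0.01, SD 0.60) and so had been quantile normalised to each other, which removes any shift of a whole array.

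Symbols came from the platform annotation, and probes of a gene were averaged. Means were tested with limma 3.58.1 in R 4.3.3 (lmFit with an intercept, eBayes, two-sided, Benjamini-Hochberg over 21262 features at 0.05). The reference stands for 1 control sample, and a deviation of that sample shared by all arrays does not enter the SE or the p-values. Array groups were cut at the largest gap of each of the first 2 principal component scores. Correlations used 100000 permutations of strains within array groups, or all permutations within groups of 7 or 8, with intervals by Fisher's z that allow for 2 fitted group differences (numpy 2.4.6). The 2 genes most like each gene, and up to 3 genes per list by smallest adjusted p, were named by rule. Procedures were tested on simulated data. The genes and lists were chosen with earlier results of these data known. P-values measure the spread between arrays.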

Additional observations from a re-analysis of the deposited data

How the results depend on the processing

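Means of the 7 genes were recomputed in 8 further settings and correlations of the 21 pairs in 6. Centring by place in a run of 8 spots turned the mean of Tac1 to 0.28, against −0.14 as deposited. Tested against a change of 1.2-fold, Tac1 (−0.14), Ppp1r1b (0.34) and Rgs9 (0.17) no longer passed, so that 4 of 7 genes did in place of 7, as did 5938 of 21262 features in place of 16176, since this null is stricter by construction. In every other setting (the mean of the 3 array group means, either array group left out, arrays centred on their median, single probes, a robust spread) all 7 genes passed with the same sign. No pair of genes passed in any of these 6 correlation settings. The lowest adjusted permutation p was 0.179 with the first 3 principal components removed and 0.324 in the 16 other arrays alone. It was 0.403 without the 2 strains farthest from the median after subtraction of group means. In the 7-array and the 8-array group alone, described above, it was 0.0792 and 0.166. No paired analysis was possible because all arrays belong to 1 group, with 1 array per strain. Signal over background was not used here, so dim probes could not be set apart.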

Other observations

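Genes of neuropeptide processing, which cut and modify precursors such as those from Pdyn, Penk and Tac1, were read in the same way. Of 8 measured genes, 2 had a positive and 2 a negative mean that passed limma's test over all features (median 0.08), and 2 and 1 did when centred by place. Pam, which amidates peptides such as substance P, had a mean of 0.88 ± 0.15 (SE, n = 31) and was above 0 on 30 arrays, the protease gene Ctsl had 0.20 ± 0.03, and the carboxypeptidase gene Cpe had −0.21 ± 0.04 and was below 0 on 26 arrays.

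Of 9 genes of striatal interneurons, 5 were positive and 3 negative (median 0.26), and 7 were positive and 2 negative when centred by place. Pvalb at the eighth place turned from −0.19 (limma adjusted p = 7.16e-05) to 0.23 (limma adjusted p = 0.000111) when centred by place. Chat, also at the eighth place, had −0.04 (limma adjusted p = 0.462) and, centred by place, 0.38 (limma adjusted p = 2.98e-07). Both named transporters of cholinergic neurons lay on opposite sides of 0. The vesicular acetylcholine transporter gene Slc18a3 had a mean of 0.26 ± 0.03 (SE, n = 31) and was above 0 on 29 arrays, whereas the choline transporter gene Slc5a7 had −0.96 ± 0.05 (SE, n = 31; limma adjusted p = 2.45e-17) and was below 0 on all 31. Both probes lay at the third place in the run of 8 spots, and centred by place their means were 0.18 and −1.04.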
